A study of Arabidopsis thaliana with 30 samples.

Results

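The comparison described here is that of hen2-2 with wild type (WT) Arabidopsis thaliana at 20 °C, and its members are 6 of the 30 samples of the series. They were chosen by genotype and temperature alone: 3 WT and 3 hen2-2 libraries of the second RNA-seq experiment. Both groups were rosette leaves of 4-week-old Col-0 background plants, grown under long days, and each library was a biological replicate. The hen2-2 plants carried a T-DNA insertion in HEN2, and they represent 1 insertion line. RNA was depleted of ribosomal RNA and sequenced from stranded libraries, without selection for poly(A) tails. Groups of plants with the se-2 allele of SERRATE, an RNA effector protein of miRNA biogenesis, and an earlier experiment with WT and hen2-2 at 22 °C, are used only to set values beside those of the main comparison.

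HEN2 is an RNA helicase of the nucleoplasm. Together with the RNA binding protein RBM7 and a zinc-knuckle protein, ZCCHC8A or ZCCHC8B, it forms the nuclear exosome targeting (NEXT) complex, which hands RNAs to the exosome for degradation from their 3′ ends. NEXT is known for removing short-lived products of RNA polymerase II, such as 3′ extended snoRNA and snRNA precursors, primary miRNA transcripts (pri-miRNAs), antisense and other non-coding transcripts, and incompletely spliced or prematurely ended mRNAs. A related helicase, MTR4, serves the exosome in the nucleolus.

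Many of the genes called higher code for short RNAs, and sequences of those described below are shown because the values refer to them. Mature miRNAs come from RefSeq's annotation of TAIR10.1, with bases 2 to 8, the seed, in capitals. The libraries measured reads over each MIR gene, not the mature miRNA. Gene counts cannot tell the primary transcript from introns and other fragments left by its processing, so a higher value may come from either. The products of MIR159a and MIR159b share a seed, and those of the other MIR genes each have another.
miR159b-3p: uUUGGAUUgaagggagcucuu
miR159a: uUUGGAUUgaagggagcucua
miR171b-3p: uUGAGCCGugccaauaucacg
miR172a: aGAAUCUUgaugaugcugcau
miR167d: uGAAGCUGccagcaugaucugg
miR5026: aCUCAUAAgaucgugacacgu

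The snoRNA genes with the smallest p-values were SNOR108 (chr5:16598796-16598905, plus strand), AT1G08643 (chr1:23701178-23701304, plus strand) and SNOR105 (chr1:10151668-10151774, minus strand). Box C/D snoRNAs guide the methylation of ribosomal RNA, with TGATGA as the core of box C and CTGA as box D. Capitals mark matches of these letters, where a search of the gene strand found them in that order. The marked TGATGA lies near the middle of the gene in SNOR108, but near the 5′ end in SNOR105. Whether the marked letters are the boxes was not tested. In AT1G08643 only CTGA is marked. SNOR105 shares an identical run of 18 bases with SNOR108 and one of 18 bases with AT1G08643. These runs are much shorter than the sequenced reads, and whether any reads were split between these genes was not tested.
SNOR108: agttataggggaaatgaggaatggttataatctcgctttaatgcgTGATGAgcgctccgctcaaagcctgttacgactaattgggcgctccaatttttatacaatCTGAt
AT1G08643: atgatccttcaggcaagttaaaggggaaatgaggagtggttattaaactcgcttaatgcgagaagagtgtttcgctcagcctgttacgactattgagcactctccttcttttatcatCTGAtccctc
SNOR105: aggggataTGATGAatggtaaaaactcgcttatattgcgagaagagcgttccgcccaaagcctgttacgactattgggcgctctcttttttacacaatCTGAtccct

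The libraries of replicates 1 to 3 held 121, 130.0 and 56.7 M counts in WT and 157, 156 and 51.8 M in hen2-2 (M, 1000000). Chloroplast genes took 51.7 to 72.2% of each library, mitochondrial genes 0.608 to 0.858%, and nuclear genes 21.5 to 46.3 M counts. Of 32832 genes in the table, 23123 had a count in these libraries and 18890 passed the filter on low counts and were tested. Levels are given as counts per 1000000 (CPM) of the normalised library, and differences as log2 fold changes of hen2-2 over WT with their standard errors. A gene was called at a Benjamini-Hochberg adjusted p below 0.05 of edgeR's quasi-likelihood test, with the replicate number as a block. In bulk leaf RNA, fewer cells of a type and less RNA per cell cannot be told apart. The rosette label was checked against markers: 5 of 5 mesophyll genes were tested, with a summed level of 1697 to 3504 CPM in WT and 1851 to 3912 CPM in hen2-2, none called. The meristem genes CLV3 and WUS and the flower genes AP1, AP3 and SEP3 were at 0 in all 6 libraries. Other genes of these lists had low levels: the 4 meristem genes summed to 0 to 1.04 CPM in WT and 0 to 0.885 CPM in hen2-2, and the 5 flower genes to 0.0942 to 0.304 CPM and 0 to 0.347 CPM. The 4 guard cell markers, all tested and 0 called, summed to 7.04 to 7.84 CPM in WT and 8.88 to 10.4 CPM in hen2-2 without overlap (median 0.31), and their part in the results was not tested.

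HEN2 itself was at 6.02, 7.76 and 6.34 CPM in WT and at 2.22, 2.47 and 2.83 CPM in hen2-2. All hen2-2 libraries lay below all WT libraries, and the level fell by 1.43 ± 0.15 on the log2 scale (adjusted p = 0.0136). Reads of HEN2 thus remained in hen2-2, and where along the gene they lie is not known from gene counts. In edgeR the call depends on the block, as its adjusted p without the block was 0.059. DESeq2 without the block kept the call (-1.43, adjusted p = 2.1e-07). Of the 8 listed NEXT and exosome cofactor genes, all of them tested, HEN2 was the only one called. RBM7 differed by -0.07 ± 0.37, ZCCHC8A by 0.16 ± 0.17, ZCCHC8B by 0.52 ± 0.63 and MTR4 by -0.02 ± 0.11 on the log2 scale. RRP6L1 and RRP6L2, which code for the nuclear exosome exonucleases, differed by -0.30 ± 0.15 and 0.15 ± 0.10. The nuclease subunit RRP44A (EMB2763) differed by -0.11 ± 0.11.

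In the nucleus, 187 genes were higher in hen2-2, which is 1.0% of the 18661 nuclear genes tested, and 62 were lower, which is 0.332%. Every one of them had the same sign in the 3 replicate pairs, as had 7323 of all 18661 nuclear genes tested. The test was blocked on these pairs, so this agreement is no separate support for the calls. The median difference was 1.31 among the genes called higher and -0.98 among those called lower, and 130 and 30 of them, respectively, changed by more than 2-fold. WT and hen2-2 libraries did not overlap for 159 of the 187 and 43 of the 62. Such separation was found for 12.9% of all nuclear genes tested. Without the replicate block 25 nuclear genes were called higher and 0 lower by edgeR, where DESeq2 without the block called 223 and 58. With the block but without replicate 2 the counts were 65 and 8, against 264 and 109 without replicate 3. Of the 58 called genes that were named by a fixed rule, 25 lost their call without replicate 2 and 11 without replicate 1. The fit of 12 libraries lost 19 of these calls. Other called genes described below, such as MIR159a, MIR171b, BT2 and AOX1A, are not among the 58, and these counts do not cover them.

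Non-coding RNAs made up 3.64% of the nuclear genes tested and 38.0% of those called higher. Among 679 tested genes of types other than protein-coding, 71 were called higher (10.5%) and 0 lower, whereas 116 of 17982 protein-coding genes were called higher (0.645%) and 62 lower (0.345%). The share called was 28.6% of snRNA genes (12 of 42), 11.2% of snoRNA genes (22 of 196), 10.9% of MIR genes (6 of 55) and 8.65% of long non-coding RNA (lncRNA) genes (23 of 266). Of other non-coding RNAs 6 of 96 were called (6.25%), and both antisense RNAs tested were. No call was made among 17 tRNA and 4 ribosomal RNA genes. Among the tested genes of each type, called ones included, the median difference was 1.25 for MIR genes, 0.70 for snoRNAs, 0.69 for lncRNAs and 0.47 for snRNAs. It was -0.01 for protein-coding genes and -0.01 for all nuclear genes tested. A part of the annotated non-coding genes passed the filter on low counts: 266 of 3480 lncRNA genes, 196 of 287 snoRNA genes, 55 of 324 MIR genes and 42 of 82 snRNA genes. A gene that passed because it is high in hen2-2 had to differ, so these shares and medians describe the tested genes only. With no filter, which adds genes with low counts, the median was 0.89 over 174 MIR genes and 0.67 over 278 snoRNAs. It was 1.57 over 1117 lncRNAs and 0.41 over 52 snRNAs. Without the block, 3 lncRNA, 1 MIR, 0 snoRNA and 0 snRNA genes were called higher, while the medians of these types were 0.67, 1.2, 0.62 and 0.45.

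**Figure D1:**
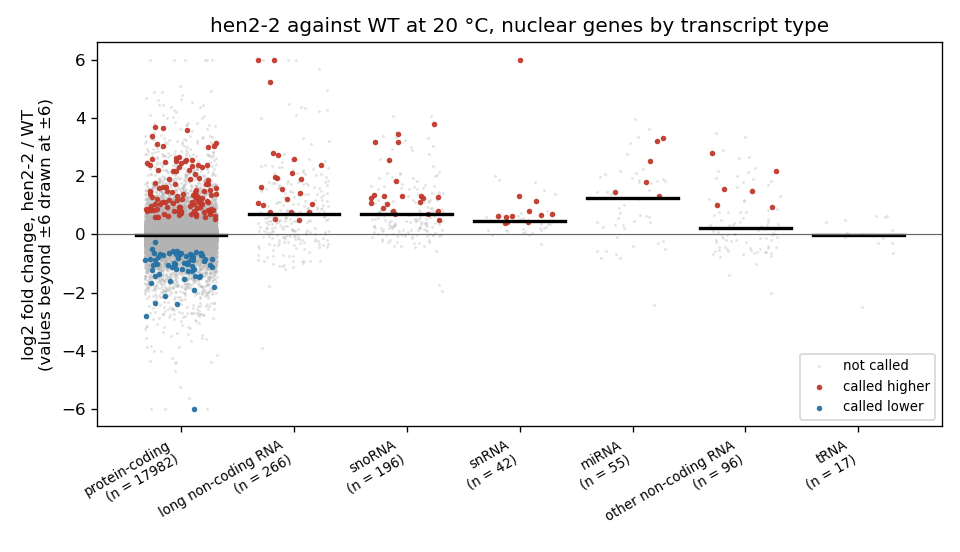
Log2 fold change of hen2-2 over WT at 20 °C (vertical axis) for the nuclear genes tested of each transcript type (horizontal axis), with called genes and the median of each type marked and values beyond ±6 drawn at ±6. The medians of MIR genes (1.25), snoRNAs (0.70), lncRNAs (0.69) and snRNAs (0.47) lie above that of protein-coding genes (-0.01).

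The 22 snoRNA genes called higher differed by 0.50 to 3.80 on the log2 scale. SNOR108 was at 3.83, 5.11 and 12.9 CPM in WT and at 38.7, 46.9 and 100.4 CPM in hen2-2, a difference of 3.16 ± 0.11 (adjusted p = 0.000655). With no block it was at 3.79 without WT replicate 3 and at 2.56 without hen2-2 replicate 3. AT1G08643 was at 2.69, 2.58 and 5.74 CPM in WT and at 25.7, 26 and 42.8 CPM in hen2-2, a difference of 3.16 ± 0.13 (adjusted p = 0.00081). SNOR105 was at 2.20, 2.24 and 3.71 CPM in WT and at 10.4, 14.4 and 25.8 CPM in hen2-2, a difference of 2.57 ± 0.14 (adjusted p = 0.00225). For each of these genes the third library was highest within both genotypes, and no WT library reached a hen2-2 library. U3 guides the cleavage of the ribosomal RNA precursor, and its genes U3D and U3B were far more abundant: U3D was at 81.4, 77.0 and 101 CPM in WT and at 181, 202 and 226 CPM in hen2-2. U3D rose by 1.24 ± 0.08 (adjusted p = 0.00273) and U3B by 1.04 ± 0.08 (adjusted p = 0.00417). At the other end of the range of levels, AT1G03746 was at 0.0570, 0.152 and 0.281 CPM in WT and at 1.26, 1.73 and 3.56 CPM in hen2-2 (3.80 ± 0.34, adjusted p = 0.00704). The letters TGATGA and CTGA in this order were found in 7 of the 22 called snoRNA genes (31.8%), in 86 of 196 tested (43.9%) and in 137 of 287 annotated (47.7%), searching the gene strand only.

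Among the 12 called snRNA genes were U1, U2, U4 and U4atac genes, whose RNAs form the core of the spliceosome. U4atac, of the minor spliceosome, was at 17.8, 16.1 and 24.7 CPM in WT and at 37.7, 44.9 and 63.8 CPM in hen2-2 (1.31 ± 0.11, adjusted p = 0.00659). U2.5 was at 67.5, 60.6 and 57.6 CPM in WT and at 97.4, 105 and 101 CPM in hen2-2 (0.71 ± 0.09, adjusted p = 0.025). The groups were well apart for both genes. U1.5, the most abundant of them, was at 522, 556 and 539 CPM in WT and at 715, 738 and 690.0 CPM in hen2-2, and its difference of 0.41 ± 0.05 (adjusted p = 0.0261) was also the smallest among nuclear genes called higher, together with U1.6 and U1.7 (0.41 each). U1.6 and U1.7 differ at 2 of 162 bases, and copies of U1 and of U4 share most of their sequence, so the values of single copies are uncertain. The copy U1.9 had 0 counts in all WT libraries and 1549, 203 and 521 counts in hen2-2 replicates 1 to 3. Against a floor of 3 counts per library, averaged over the group, this was at least 227-fold higher. U1.9 overlaps the lncRNA gene AT5G04325 on the same strand, which was at a mean of 19.2 CPM in WT and 19.5 CPM in hen2-2, so the assignment of these reads is uncertain. In the se-2 libraries U1.9 was at 0, 0 and 445 counts, so a level of 0 did not go with HEN2 genotype in every library. The called genes included 3 pairs of a U1 and a U4 gene within 1000 bp of each other: U1.10 and U4.6 on chromosome 1, and U1.9 with U4.8 and U1.8 with U4.7 on chromosome 5.

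The 100 bases before the snRNA genes are shown for U4atac (chr4:9096275-9096374, plus strand), U2.5 (chr5:2974914-2975013, plus strand), U1.5 (chr1:2538239-2538338, minus strand), U1.9 (chr5:9494595-9494694, minus strand) and U1.10 (chr1:4007397-4007496, minus strand) because all 5 genes were called and all but U1.10 hold the word described next. Plant snRNA genes are transcribed from promoters with an upstream sequence element. The word of 10 bases found most often in the 100 bases before the annotated snRNA genes, in 29 of 82, was TCCCACATCG, and it matches the core of that element. Capitals mark it.
U4atac: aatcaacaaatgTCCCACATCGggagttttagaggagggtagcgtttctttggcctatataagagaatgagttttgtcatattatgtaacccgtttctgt
U2.5: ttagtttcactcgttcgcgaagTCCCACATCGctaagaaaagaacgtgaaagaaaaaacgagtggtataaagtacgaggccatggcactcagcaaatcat
U1.5: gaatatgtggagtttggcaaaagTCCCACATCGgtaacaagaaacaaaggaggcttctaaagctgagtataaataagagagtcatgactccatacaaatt
U1.9: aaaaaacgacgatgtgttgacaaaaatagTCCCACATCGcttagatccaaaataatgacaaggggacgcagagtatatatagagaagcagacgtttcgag
U1.10: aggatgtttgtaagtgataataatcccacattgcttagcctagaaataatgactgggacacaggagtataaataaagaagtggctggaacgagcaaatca
These letters stood on the gene strand before 11 of the 12 called snRNA genes, all but U1.10, and before 17 of the 30 tested snRNA genes that were not called (56.7%). They stood before 3 of the 22 called and 3 of the 196 tested snoRNA genes, and before 0 of the 23 called lncRNA genes. Among all 37899 annotated nuclear genes there were 58 (0.153%), which include the 29 snRNA genes the word was picked from. On the other strand they were found before 0 of the 42 tested snRNA genes and 12 of the 37899.

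Of the 6 MIR genes called higher, MIR159b differed most clearly. It was at 0.437, 0.725 and 0.453 CPM in WT and at 5.13, 5.59 and 5.17 CPM in hen2-2 (3.31 ± 0.20, adjusted p = 0.00273). MIR159a, whose product has the same seed and, like that of MIR159b, targets mRNAs of MYB transcription factors, was at 0.475, 0.457 and 0.593 CPM in WT and at 1.35, 1.57 and 2.64 CPM in hen2-2 (1.81 ± 0.28, adjusted p = 0.0448). The hen2-2 libraries of MIR159b were alike and all above those of MIR159a. MIR171b, whose product targets mRNAs of GRAS transcription factors, was at 0.105, 0.0942 and 0.0936 CPM in WT and at 0.780, 0.854 and 1.19 CPM in hen2-2 (3.22 ± 0.52, adjusted p = 0.0487). MIR172a, whose product targets mRNAs of AP2-type transcription factors, was at 0.133, 0.159 and 0.499 CPM in WT and at 0.925, 0.979 and 2.29 CPM in hen2-2 (2.52 ± 0.36, adjusted p = 0.037). With no block it was at 3.23 without WT replicate 3 and at 1.89 without hen2-2 replicate 3. The groups did not overlap for these 4 genes, but the WT levels were close to the counting floor of 0.0187 to 0.0551 CPM for MIR171b. MIR167d, whose product targets mRNAs of auxin response factors, rose by 1.31 ± 0.20 (adjusted p = 0.0419) with overlapping groups, from 0.665, 1.75 and 2.76 CPM to 2.18, 4.43 and 5.23 CPM. MIR5026 rose by 1.46 ± 0.19 (adjusted p = 0.0292), also with overlapping groups, and overlaps AT4G13495 on the same strand. Of all 55 MIR genes tested, the 6 called ones included, 44 had a difference above 0, beside 9149 of the 18661 nuclear genes tested. None of the 8 Microprocessor and cap binding genes was called (median -0.08), nor any of the 10 RNA silencing genes (median -0.10).

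The 23 lncRNA genes and both antisense RNA genes called higher differed by 0.49 or more on the log2 scale. The antisense RNA AT4G00975 (chr4:421973-423258, plus strand) was at 1.84, 4.34 and 5.26 CPM in WT and at 33.5, 55.3 and 56.0 CPM in hen2-2, a difference of 3.75 ± 0.17 (adjusted p = 0.00103). The protein-coding gene AT4G00980 on the opposite strand differed by -0.99 ± 0.62 (adjusted p = 0.563). The second antisense RNA, AT2G31902, rose by 2.33 ± 0.19 (adjusted p = 0.00692), and its partner XIF, a myosin gene, differed by -1.04 ± 0.79. Neither partner passed the test. AT5G07325, an lncRNA, had 0 counts in every WT library and 9360, 14698 and 853 counts in hen2-2, at least 1802-fold higher by the floor described for U1.9. This gene was also at 0 counts in the 3 se-2 libraries and in se-2 hen2-2 replicate 3, where the other se-2 hen2-2 libraries had 10722 and 1281 counts. AT1G05163 had 0 counts in WT and 208, 236 and 157 counts in hen2-2, at least 60.3-fold higher, yet 170, 0 and 180 counts in se-2. It overlaps the far more abundant AT1G15405 on the same strand, at a mean of 6674 CPM in WT and 7605 CPM in hen2-2, so its value is uncertain. Most lncRNAs called higher were seen in WT as well: AT3G59068, antisense to AT3G59070, was at 16.2, 17.5 and 30.9 CPM in WT and at 43.9, 46.1 and 81.8 CPM in hen2-2 (1.41 ± 0.08, adjusted p = 0.00225). AT5G09125 rose by 1.2 ± 0.08 and AT1G09797 by 1.02 ± 0.08, and the abundant AT4G04565 rose by 0.49 ± 0.08, from 271, 245 and 259.6 CPM to 346, 332 and 412 CPM. GUT15, a non-coding RNA named for its instability, was at 14.6, 10.2 and 15.1 CPM in WT and at 40.7, 29.5 and 42.3 CPM in hen2-2 (1.50 ± 0.09, adjusted p = 0.00225). Of the other non-coding RNAs, AT1G64563 rose by 2.78 ± 0.29, AT1G16635 by 2.19 ± 0.30 (2.78 with no block and without WT replicate 3) and AT4G36648 by 0.94 ± 0.08.

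**Figure D2:**
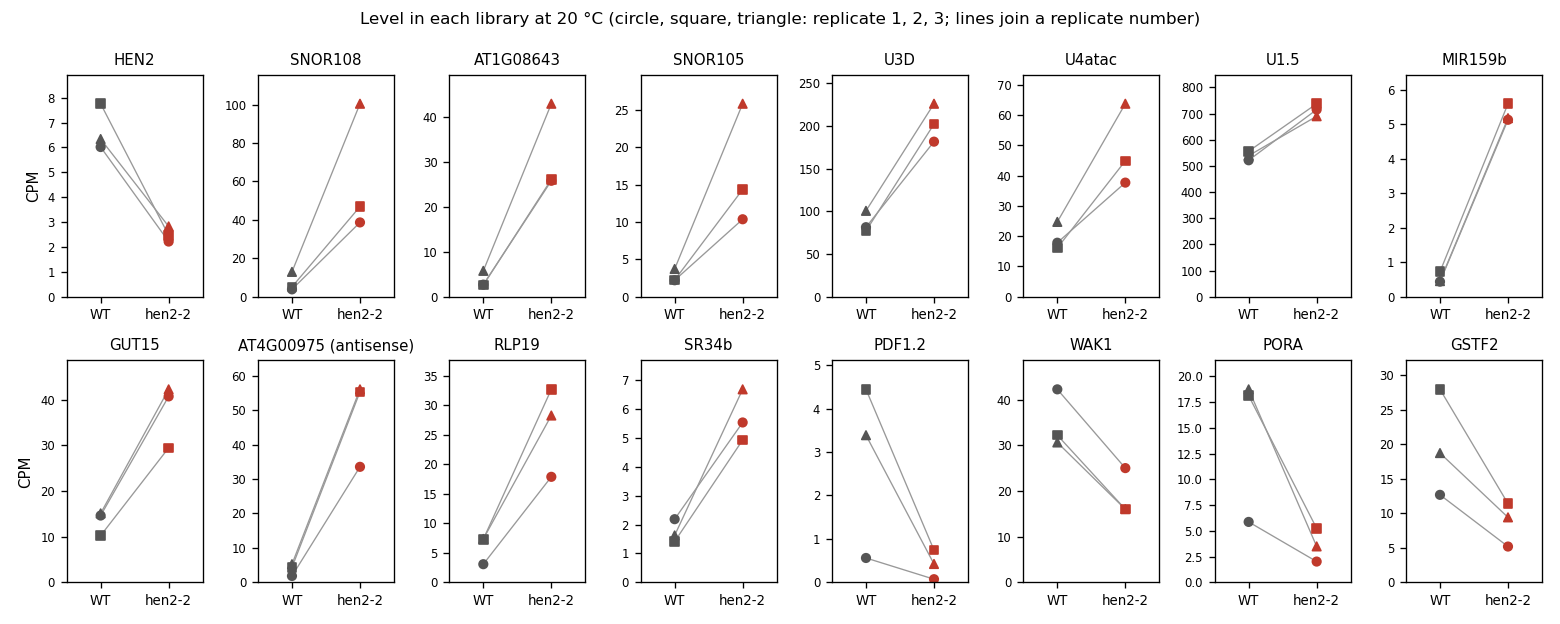
Levels in CPM (vertical axes starting at 0, 1 panel per gene) of selected called genes in each of the 3 WT and 3 hen2-2 libraries at 20 °C, with a point for each library and lines joining libraries of the same replicate number. The hen2-2 libraries of SNOR108 lie between 38.7 and 100.4 CPM, above the WT libraries at 3.83 to 12.9 CPM.

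Position was recorded because reads of overlapping genes can be assigned to either gene, and whether the counting used strand is not stated. Of the 71 called genes of other types, 23 (32.4%) overlapped a gene on the same strand, against 30.2% of all such genes tested. For 19 (26.8%) the overlapping gene was itself non-coding, against 15.0% of those tested. Another called gene lay within 1000 bp of 17 of the 71, so that 1 transcript may be counted under more than 1 gene. How many of all tested genes lie that near a called gene was not counted, so the 17 have no background share. Protein-coding genes that overlap the called non-coding genes numbered 27, of which 18 were tested and 0 called, with a median of -0.11. Among the 116 protein-coding genes called higher, 16 (13.8%) overlapped a gene on the same strand, against 5.78% of all those tested, and 16 (13.8%) had a non-coding gene on the opposite strand, against 7.11%. None of the 62 called lower overlapped a gene on the same strand. Of the genes described by name, GUT15, AT5G09125, AT1G16635 and AT2G31902 also overlap genes on the same strand. HEN2, AT2G42330, AT1G62310 and SUVR5 overlap genes on the opposite strand. The uncertainty stated for other overlapping genes holds for these values as well. Protein-coding genes called higher had a median length of 3033 bp, against 2459 bp for all tested.

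The protein-coding genes with the smallest p-values were of several kinds. PRIN2, which acts with the plastid-encoded RNA polymerase, was at 16.2, 21.4 and 19.7 CPM in WT and at 80.0, 109.9 and 112 CPM in hen2-2 (2.39 ± 0.09, adjusted p = 0.000655). PRIN2 overlaps AT1G04797 and AT1G10530 on the opposite strand, so its value is uncertain. AT5G25280, annotated as serine-rich, was at 9.88, 9.76 and 14.8 CPM in WT and at 80.4, 61.6 and 71.6 CPM in hen2-2 (2.65 ± 0.15, adjusted p = 0.0023). AT2G42330, annotated as a GC-rich sequence DNA-binding factor-like protein, was at 1.61, 1.35 and 2.54 CPM in WT and at 9.19, 7.92 and 12.8 CPM in hen2-2 (2.47 ± 0.13, adjusted p = 0.0018). All these groups were clearly apart. AT1G49700 and AT3G63052, both without known function, rose by 1.48 ± 0.08 and 1.63 ± 0.09. AT3G26510, with a PB1 domain, rose by 2.33 ± 0.14 and AT1G72645, uncharacterized, by 2.39 ± 0.16. AT1G72645 overlaps AT1G09333 on the same strand, so its value is uncertain. XTH31, an enzyme that remodels cell wall xyloglucan, was at 2.48, 6.29 and 4.73 CPM in WT and at 8.19, 22.0 and 20.8 CPM in hen2-2 (1.89 ± 0.12, adjusted p = 0.00273).

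Called genes were grouped by annotated function and direction after the calls were seen. Such groups hold called genes only, so their counts are not shares of a function and show no change of the function as a whole. Among the genes called higher were 6 genes for RNA binding and splicing factors, with differences of 1.14 to 2.51. AT3G04160, a protein of the U11/U12 snRNP of the minor spliceosome, was at 0.722, 0.906 and 1.09 CPM in WT and at 4.40, 4.53 and 6.72 CPM in hen2-2 (2.51 ± 0.16, adjusted p = 0.00286). SR34b, an SR splicing factor, was at 2.19, 1.41 and 1.62 CPM in WT and at 5.53, 4.93 and 6.68 CPM in hen2-2 (1.72 ± 0.18, adjusted p = 0.0136). Both are well separated between the genotypes. EMB2770, a pre-mRNA splicing factor, rose by 1.21 ± 0.11 and ATU2AF65A, the large subunit of the U2 auxiliary factor, by 1.14 ± 0.12. SR34b was the only one of 19 SR genes called, and the median of the SR genes was -0.06.

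Another 16 of the genes called higher code for chromatin and transcription proteins, and they differed by 0.59 to 3.13 with a median of 1.24. The jmjC domain gene AT1G62310 was at 9.48, 8.15 and 7.27 CPM in WT and at 29.9, 21.1 and 19.7 CPM in hen2-2 (1.49 ± 0.10, adjusted p = 0.00331). The basic pentacysteine genes BPC1, BPC2 and BPC3, which code for proteins that bind GA repeats, rose by 1.26 ± 0.12, 1.1 ± 0.14 and 3.13 ± 0.47. SUVR5, a histone lysine methyltransferase, was at 5.86, 6.09 and 5.99 CPM in WT and at 8.81, 11.9 and 14.1 CPM in hen2-2 (0.92 ± 0.15, adjusted p = 0.0458). It was the only one of 91 tested genes on the histone list that was called. CPL3, a phosphatase of the RNA polymerase II C-terminal domain, rose by 0.71 ± 0.10.

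Receptor-like proteins, receptor kinases and NB-LRR proteins, which sense pathogens or signals at the cell surface and inside the cell, account for 13 of the genes called higher, by 0.58 to 3.59 with a median of 2.19. Receptor-type kinase genes were called lower as well, WAK1 and RLK among them, and are counted below with the genes called lower. RLP19 was at 3.07, 7.29 and 7.35 CPM in WT and at 17.9, 32.7 and 28.2 CPM in hen2-2 (2.21 ± 0.14, adjusted p = 0.00273). The LRR gene AT2G15042 rose by 2.23 ± 0.14, the lectin kinase genes AT5G10530 and AT3G45420 by 3.01 ± 0.26 and 3.05 ± 0.27, and RLP31 by 1.37 ± 0.18. The NB-LRR gene AT1G12290 was at 1.44, 1.57 and 1.23 CPM in WT and at 7.41, 5.71 and 6.39 CPM in hen2-2 (2.19 ± 0.17, adjusted p = 0.00555), and it overlaps AT1G12280 and AT1G12294 on the same strand. AT5G05400, AT1G59218 and AT4G19530, of the same family, rose by 2.57 ± 0.40, 0.76 ± 0.11 and 0.58 ± 0.09. Of 131 NB-LRR genes tested 4 were called higher and 0 lower, with a median of 0.08 over the list. NB-LRR genes occur in clusters of related copies, so single values can be uncertain.

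Nitrate-related genes called higher were BT2, LBD39, a transcription factor for nitrate responses, and CLC-A, which moves nitrate into the vacuole. BT2, a nitrate-responsive regulator, was at 71.3, 9.25 and 4.34 CPM in WT and at 115, 19.6 and 13.8 CPM in hen2-2. The first library was highest in both genotypes and the groups overlapped, but each hen2-2 library was above the WT library of its number (1.12 ± 0.18, adjusted p = 0.0487). LBD39 rose by 1.26 ± 0.15 and CLC-A by 0.62 ± 0.09. Of the 42 nuclear genes for photosystem, antenna and RuBisCO small subunits, LHCA1 was the only one called: it was at 627, 786 and 714 CPM in WT and at 848, 1294 and 1209.9 CPM in hen2-2 (0.64 ± 0.07, adjusted p = 0.0192).

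All 62 nuclear genes called lower were protein-coding, HEN2 among them, and 15 of them were grouped, again after the calls, as defence and cell surface signalling, with differences between -2.81 and -0.51. PDF1.2, a defensin, was at 0.561, 4.44 and 3.39 CPM in WT and at 0.0722, 0.742 and 0.422 CPM in hen2-2 (-2.81 ± 0.25, adjusted p = 0.00704). With no block and without hen2-2 replicate 2 it was at -3.64. BGL2, the pathogenesis-related glucanase PR2, was at 21, 12.5 and 12.8 CPM in WT and at 10.8, 3.77 and 6.79 CPM in hen2-2 (-1.20 ± 0.18, adjusted p = 0.0391). The groups overlapped for PDF1.2, where the first library was lowest in both genotypes, and did not overlap for BGL2. WAK1, a kinase bound to the cell wall, was at 42.3, 32.2 and 30.6 CPM in WT and at 25, 16 and 16 CPM in hen2-2 (-0.90 ± 0.09, adjusted p = 0.0136). The ion channel genes CNGC11 and CNGC3, next to each other on chromosome 2, fell by 0.97 ± 0.10 and 0.80 ± 0.12. PEN3, a transporter for defence compounds, fell by 0.51 ± 0.07 and MPK11, a MAP kinase, by 1.24 ± 0.18. The 9 listed salicylic acid defence genes had a median of -0.48 and 0 of 9 were above 0, but BGL2 was the only one called. Of the 9 jasmonate genes PDF1.2 was the only one called, and their median was 0.22. Markers of senescent leaves moved beside these genes: 3 of 5 were tested, all 3 were below 0 and 0 were called, and their summed level was 14.5 to 34.8 CPM in WT and 13.5 to 17.9 CPM in hen2-2. Their part in the result was not tested.

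Of the other genes called lower, 6 belong to alternative respiration and detoxification. AOX1A, the mitochondrial alternative oxidase, was at 13.9, 11.6 and 18.5 CPM in WT and at 9.71, 7.21 and 11.2 CPM in hen2-2 (-0.64 ± 0.10, adjusted p = 0.0419). NDB2, an alternative NAD(P)H dehydrogenase, fell by 1.08 ± 0.14, UGT74E2, a glycosyltransferase, by 1.52 ± 0.24, and CYP81D8, a cytochrome P450, by 1.44 ± 0.22. GSTF2, a glutathione S-transferase, was at 12.7, 28.0 and 18.7 CPM in WT and at 5.19, 11.4 and 9.41 CPM in hen2-2 (-1.19 ± 0.11, adjusted p = 0.00704), and was the only one of 32 tested genes of that family called. NIT2, a nitrilase, fell by 1.80 ± 0.19. PORA, which reduces protochlorophyllide in chlorophyll synthesis, was at 5.86, 18.1 and 18.7 CPM in WT and at 2.02, 5.24 and 3.49 CPM in hen2-2 (-1.91 ± 0.18, adjusted p = 0.00958). HEMC, an enzyme of the same pathway, fell by 0.57 ± 0.09. QQS, a small protein that influences starch content, fell by 2.11 ± 0.23, CAX3, a vacuolar calcium exchanger, by 1.42 ± 0.16, AT3G61280 by 2.39 ± 0.20, AT2G32160 by 1.66 ± 0.14 and the copper amine oxidase gene AT4G12290 by 1.47 ± 0.14. With no block AT3G61280 was at -1.42 without WT replicate 1 and at -3.35 without hen2-2 replicate 1, where AT4G12290 was at -0.94 and -2.04. AT3G61280 also lost its call with the block, without replicate 1 (adjusted p = 0.101 by edgeR) and in the fit of 12 libraries (adjusted p = 0.128). Other named genes called lower also lost theirs in at least 1 edgeR fit with the block. The largest adjusted p was 0.413 for WAK1, 0.336 for CAX3, 0.316 for BGL2, 0.209 for PDF1.2 and 0.207 for NIT2. It was 0.0817 for QQS and 0.069 for CNGC11, and below 0.05 for AT2G32160, AT4G12290, GSTF2 and PORA. A gene for a serine carboxypeptidase-like protein, scpl16, had 37, 116 and 146 counts in WT and 0 in every hen2-2 library, at least 36.4-fold lower. It was also at 0 in 1 of the 3 se-2 libraries.

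**Figure D3:**
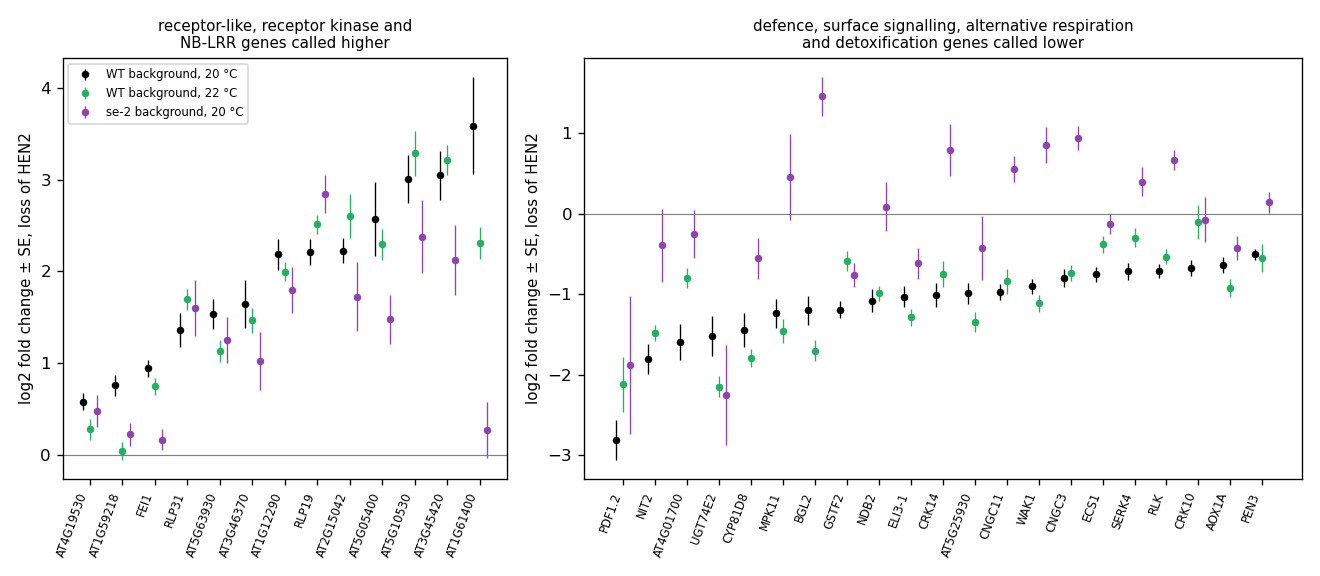
Log2 fold changes with their standard errors (vertical axis) for the called receptor-like, receptor kinase and NB-LRR genes (left) and the called defence, surface signalling, respiration and detoxification genes (right), in hen2-2 against WT at 20 °C and 22 °C and in the se-2 background at 20 °C. The defence and cell surface signalling genes lie between -2.81 and -0.51 at 20 °C, and their median in the se-2 background is 0.40.

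Other listed groups held few or no calls by edgeR: 0 of 20 clock genes (median -0.08), 0 of 8 cold response genes (-0.25), 0 of 8 genes for 5′ decay, decapping and the SKI complex (0.04), 0 of 293 cytosolic ribosomal protein genes (0.01), 0 of 37 ERD6-like sugar transporter genes (-0.09), 0 of 4 heat shock genes, 0 of 7 sulfur limitation genes and 1 of 281 pentatricopeptide repeat genes (AT5G61990, 1.05 ± 0.15). All medians beside the -0.01 of all nuclear genes are descriptions of the lists.

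The genes called at 20 °C were then looked up in comparisons made from other libraries. WT and hen2-2 at 22 °C were quantified in another way, with estimated counts per transcript, and 6.94% of the nuclear genes tested there were called higher and 5.25% lower. Of the 187 genes called higher at 20 °C, 170 were tested at 22 °C, 163 had the same direction and 140 were called in that direction, which is 74.9% of the 20 °C list and 10.5% of the 1336 genes called higher at 22 °C. Over all nuclear genes, 53.2% had a difference above 0 at 22 °C. Of the 62 called lower, 60 had the same direction and 46 were called (74.2% of the list and 4.55% of the 1010). Of the 12 snRNA genes called at 20 °C, 9 were tested at 22 °C, 5 had the same direction and 2 were called, and PRIN2 differed by -0.04 ± 0.13 (adjusted p = 0.854). Since the way of counting differs between the experiments, temperature and quantification cannot be told apart.

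Loss of HEN2 in the se-2 background, se-2 hen2-2 against se-2 at 20 °C, used none of the libraries of the main comparison. There 1.92% of the nuclear genes were called higher and 0.679% lower, and 49.0% had a difference above 0. Of the 187 genes called higher in hen2-2 against WT, 186 were tested, 166 had the same direction and 86 were called, which is 46% of the list and 25.1% of the 343 genes called higher in the se-2 background. The 70 tested genes of types other than protein-coding all had the same direction, and 44 of them were called. Of the 62 called lower, 61 were tested, 28 had the same direction, 4 were called and 5 were called in the opposite direction. The difference between the backgrounds was tested as an interaction in the 12 libraries, and 34 of the 254 called genes passed. Over all 19454 genes of that fit 206 passed. The 254 genes were called in 6 of these 12 libraries, so their count, and those of the groups below, are not independent of the calls. In the defence and cell surface signalling group 6 of 15 passed, and BGL2, CNGC3 and the receptor lectin kinase gene RLK were called higher in se-2 hen2-2 than in se-2, by 1.45, 0.93 and 0.67. Of the alternative respiration and detoxification genes 0 of 6 passed. Of the 16 chromatin and transcription genes 3 passed, SUVR5 among them. Of the 3 nitrate-related genes 1 passed, and 0 had the same direction in the se-2 background (median -0.21).

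**Figure D4:**
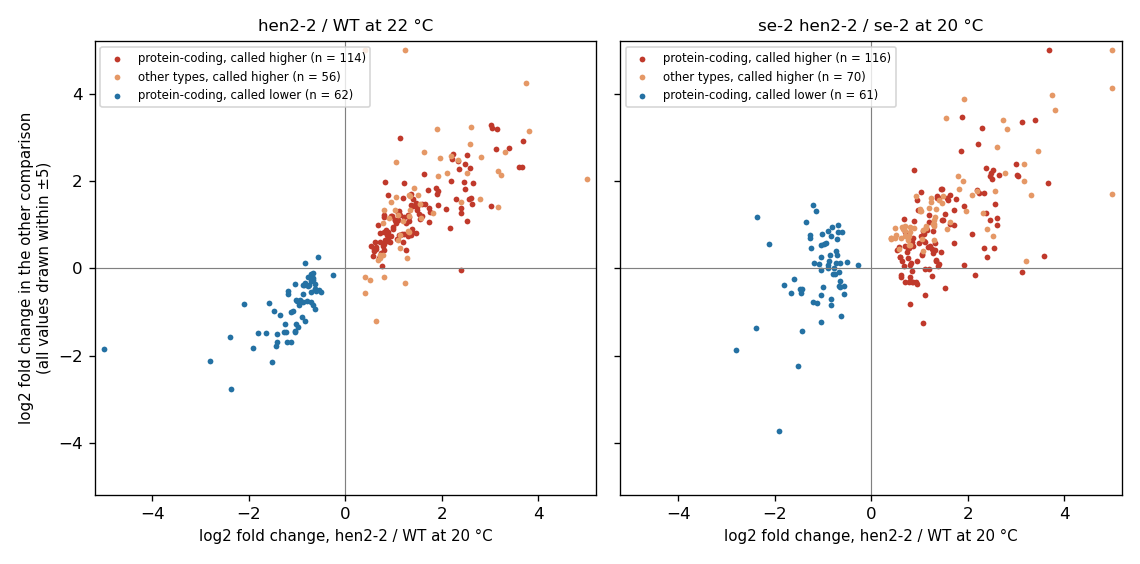
Log2 fold changes of the genes called at 20 °C (horizontal axis) and their log2 fold changes at 22 °C and in the se-2 background (vertical axes), 1 point per gene, with values drawn within ±5. Genes called higher keep their sign in 163 of 170 cases at 22 °C and 166 of 186 in the se-2 background, and genes called lower in 60 of 62 and 28 of 61.

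Chloroplast and mitochondrial genes are transcribed and degraded within the organelles and are given apart. Of 133 chloroplast genes tested, 5 were called higher (3.76%) and 0 lower, and 126 had a difference above 0, with a median of 0.16. The differences were small. The gene ATCG00130 was at 1971, 1658 and 2051 CPM in WT and at 2589, 2205 and 2680.3 CPM in hen2-2 (0.40 ± 0.04, adjusted p = 0.00892). The gene atpA, for a subunit of the chloroplast ATP synthase, was at 3759, 3272 and 2922 CPM in WT and at 4460.2, 3919 and 3368 CPM in hen2-2 (0.24 ± 0.03, adjusted p = 0.0362), with overlapping groups. ATCG00040 rose by 0.40 ± 0.04 (adjusted p = 0.0143), ATCG00140 by 0.31 ± 0.04 (adjusted p = 0.0271) and ATCG00400 by 0.45 ± 0.07 (adjusted p = 0.0491). WT and hen2-2 libraries did not overlap for 21.1% of the chloroplast genes, beside 12.9% of the nuclear genes. These calls depend on the block and on replicate 2: 0 chloroplast genes were called without the block by edgeR and by DESeq2, in the fit of 12 libraries, or without replicate 2, where 121 to 125 of the 133 were still above 0. They also depend on the scaling: with each organelle scaled to its own genes, 58 chloroplast genes were above 0, the median was -0.03, and 1 gene was called higher and 3 lower. Scaling chloroplast genes to themselves sets their centre near 0 by construction, so that median gives no direction for the group.

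**Figure D5:**
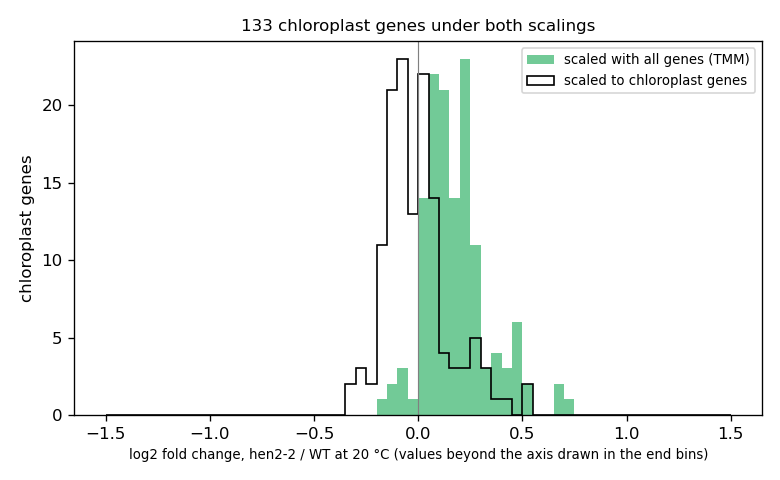
Histogram of the log2 fold changes (horizontal axis) of the 133 chloroplast genes tested in hen2-2 against WT at 20 °C, as scaled with all genes (filled) and as scaled to chloroplast genes alone (line). The median is 0.16 under the first and -0.03 under the second.

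Of the 96 mitochondrial genes tested 0 were called by edgeR, with 8 at an unadjusted p below 0.05, and DESeq2 with the block also called 0. Their median was -0.04, and 43 were above 0. The genes with the smallest p-values were rps4, which codes for a mitochondrial ribosomal protein (-0.39 ± 0.10, adjusted p = 0.16), ccmFN2, for cytochrome c maturation (0.43, adjusted p = 0.196), ATMG00516 (0.49, adjusted p = 0.259) and ATMG01320 (0.27, adjusted p = 0.285). Groups did not overlap for 8.33% of the mitochondrial genes.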

How the data were processed

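The authors aligned the 20 °C reads with HISAT2 to TAIR10 and deposited counts per gene from StringTie, which derives them from coverage, and the read length assumed for this is not given in the sources used here. Whether strand was used is not stated either. For the 22 °C libraries the authors deposited expected counts per transcript, here summed per gene and rounded, and TPM values, which were not used. Genes were tested with edgeR 4.0.16 in R 4.3.3 (limma 3.58.1): TMM scaling, the filter for expressed genes, and a two-sided quasi-likelihood F test with the replicate number as a block, adjusted by Benjamini-Hochberg over all 18890 genes tested and called below 0.05. The study does not state what a replicate number shares. In both genotypes, replicate 1 stood apart in some clock genes. CCA1 was at 0.361, 14.0 and 26.2 CPM in WT and at 1.02, 22.0 and 26.6 CPM in hen2-2. TOC1 was at 29.0, 6.42 and 4.85 CPM in WT and at 31.3, 4.68 and 3.73 CPM in hen2-2. ZTL did not show this, at 6.43 to 7.56 CPM in WT and 6.36 to 7.79 CPM in hen2-2. Whether the time of harvest differed was not tested. Deviations from the group means correlated by 0.51, 0.31 and 0.28 between libraries of the same number and by -0.33 to -0.01 between others, so the numbers were taken as pairs. The interaction used 12 libraries. DESeq2 1.42.0 was an alternative. Gene types, positions and sequences came from RefSeq's TAIR10.1. The script was tested on simulated data. Python 3.11.15 with pandas 2.3.3 and numpy 2.4.6 made the tables. Floors of 3 counts cover counting error only.

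Named genes were HEN2 and its cofactors, the 12 protein-coding genes called higher and the 12 called lower with the smallest p-values, the 4 called genes of each other type, the 4 genes of each organelle with the smallest p-values, each called gene with the same sign in all replicate pairs, and the called members of the lists (up to 4 a list). Further genes are examples of functional classes, chosen after their values were seen. The members and lists were chosen with earlier results of these data known. Alternatives were the fit without the block, DESeq2, RLE scaling, no filter, nuclear genes alone, each organelle scaled alone, counts divided by 4 (the most frequent count above 0 was 4 in each library), a fit of 12 libraries and leaving out replicates.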

Additional observations from a re-analysis of the deposited data

Results flagged for a closer look

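Some named genes are listed because the effect of hen2-2 differed between the WT and the se-2 background in a test of the interaction over 12 libraries (edgeR, adjusted p below 0.05). Values are the log2 effect in the se-2 background minus that in WT. Genes lower in hen2-2 against WT and not in the se-2 background were QQS (2.68, adjusted p = 0.00931), BGL2 (2.67, adjusted p = 0.00982), WAK1 (1.77, adjusted p = 0.0203) and CNGC11 (1.54, adjusted p = 0.00931). PORA fell more in the se-2 background, with an interaction of -1.80 (adjusted p = 0.0329), and XTH31 rose more, with 1.59 (adjusted p = 0.039). The log2 effect was lower in the se-2 background than in WT for MIR159b (-1.63, adjusted p = 0.0309), MIR172a (-1.76, adjusted p = 0.0359), SUVR5 (-1.22, adjusted p = 0.0482) and the chloroplast gene ATCG00040 (-0.56, adjusted p = 0.0323). The means in WT and in se-2 were 0.538 and 3.41 CPM for MIR159b, 0.264 and 3.34 CPM for MIR172a, and 5.98 and 13.9 CPM for SUVR5. MIR159b was at a mean of 5.30 CPM in hen2-2 and 11.1 CPM in se-2 hen2-2, so its lower log2 effect started from a higher level. Over all 19454 genes of that fit 206 passed.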

How the results depend on the processing

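With no replicate block, edgeR called 25 nuclear genes higher, all of them also called with the block, 0 lower and 0 chloroplast genes, and the adjusted p of HEN2 (-1.42) was no longer below 0.05. Without the block 12 of the 58 genes named by the fixed rule and called at 20 °C were still called. The 22 °C and se-2 background comparisons fell from 2394 to 263 and from 472 to 55 calls, an alternative added after seeing the data. DESeq2 with the replicate block called 518 nuclear genes higher, 293 lower and 25 chloroplast genes, and included all 187, 62 and 5 main calls. DESeq2 without it called 223, 58 and 0. Counts divided by 4 gave 346, 139 and 10, and the fit of 12 libraries with the replicate block gave 163, 16 and 0. RLE scaling, no filter and nuclear genes alone stayed within 1.5 times each count. Leaving out replicates, with and without the block, gave 0 to 264 genes higher, 0 to 109 lower, 0 to 8 chloroplast and 0 to 2 mitochondrial genes, where fewer libraries also leave fewer degrees of freedom. Without replicates 1, 2 and 3 and with the block, 121, 65 and 264 nuclear genes were higher and 40, 8 and 109 lower. Among genes called higher, the largest edgeR adjusted p of fits with the block was 0.212 for MIR172a and 0.201 for SUVR5. It was 0.198 for U1.5, 0.14 for U2.5, 0.000681 for SNOR108 and 0.00616 for MIR159b. HEN2 ranged from -1.55 to -1.31 with replicates left out and the block kept, and lost its call without replicate 2 (-1.31, adjusted p = 0.0713). With single libraries left out and no block it was at -1.50, -1.30 and -1.46 without WT replicates 1 to 3 and at -1.34, -1.42 and -1.51 without hen2-2 replicates 1 to 3, each time not called. Genes that changed sign were never called. RBM7 was at 0.044 with no replicate block in edgeR, 0.040 with none in DESeq2, 0.022 with divided counts, -0.37 to 0.13 with replicates left out, and 0.23, 0.26 and 0.27 with no block and without WT replicate 2, hen2-2 replicate 1 and hen2-2 replicate 3. MTR4 ranged from -0.060 to 0.041 with replicates left out, and was at 0.19 and 0.088 with no block and without WT replicate 3 and hen2-2 replicate 1. With no block and without WT replicate 3, EMB2763, the exosome nuclease RRP44A, was at 0.0087 and ATMG01320 at -0.014. The cause of these changes was not tested. Low levels limit MIR171b, and the deepest libraries are replicates 1 and 2 of both genotypes.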
